A study of Mus musculus with 6 samples.

Results

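The genes described here encode the cell's defence against reactive oxygen species, the transcription factor NRF2 with its partner and targets, and the carriers and channels of the mitochondrial membranes. They were chosen by name: 37 genes were listed, and a gene was read from its brightest probe set that carries exactly 1 gene symbol. This gave values for 33 of the 37 genes, among 18193 genes in all. Prdx1 was left out because each of its probe sets also carries a second symbol, and Ucp2, Prdx5 and Prdx6 were not analysed here. The 33 genes comprised 8 carriers and channels, 7 mitochondrial antioxidant enzymes, 2 NRF2 regulators, 11 NRF2 targets and 5 cytosolic, peroxisomal or secreted antioxidants.

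RNA of the heart's ventricular apex was measured in transgenic mice with a human mitochondrial progesterone receptor, PR-M, on Affymetrix Mouse Genome 430 2.0 arrays. The labels name 3 samples as PR-M expressing and 3 as PR-M non-expressing. Mice of both groups received 2.5 mg of progesterone in oil under the skin over 19 to 21 days, so the hormone was common to all arrays and the comparison is of PR-M under progesterone. The labels used here give no strain, age, sex, promoter or measure of PR-M, nor the animals behind each array. The p-values thus describe variation among these 6 arrays, which may be technical. Values are on a log2 scale, in which 1 unit is a doubling of signal. Every difference below is expressing minus non-expressing, and SD values have n = 3 in each group.

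Respiration in heart muscle leaks electrons to oxygen and forms superoxide. Superoxide dismutases turn it into hydrogen peroxide, which catalase, glutathione peroxidases and peroxiredoxins remove, and glutathione, thioredoxin and their NADPH-dependent reductases restore the peroxidases. NRF2, the product of Nfe2l2, is held for degradation by KEAP1 and, when released by oxidants or electrophiles, binds antioxidant response elements with small MAF proteins and raises genes of glutathione synthesis, conjugation and thioredoxin reduction. The mitochondrial carriers move ADP, ATP and phosphate across the inner membrane, and the voltage-dependent anion channels (VDAC) pass metabolites through the outer one.

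The antioxidant response element contains the letters TGACNNNGC, where N is any base. These letters were searched on both strands of RefSeq promoter windows (GRCm38.p6) from 250 bases before to 50 bases after a start site. A window was at hand for 29 of the 37 listed genes, and 10 of the 29 held a match in at least 1 window, against 14% of all 27025 genes with a window. Among NRF2 targets 5 of 8 held one (62.5%), among carriers and channels 3 of 7, and among the 7 mitochondrial antioxidant enzymes 0. The stricter form TGACTCAGC, with the N bases fixed as TCA, overlaps the AP-1 motif. It was found in 0.503% of all genes and in Prdx1 alone of these genes. A match is a description of letters and no site of binding. Stretches with a match are shown for the measured NRF2 targets Gclm, Gsta3, Srxn1 and Txnrd1, for Nfe2l2 and for the carriers Slc25a5 and Slc25a3. Sod1, a measured gene with a difference of -0.05 and overlap, also held a match but is not shown. Nor are Ucp2 and Prdx1, which held a match and have no values here. The stretches shown read 5′ to 3′ on the gene's strand, with the match in capitals.
Gclm, chr3:122245413-122245441, plus strand: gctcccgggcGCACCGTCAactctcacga
Gsta3, chr1:21240454-21240482, plus strand: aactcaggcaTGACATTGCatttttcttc
Srxn1, chr2:152105542-152105570, plus strand: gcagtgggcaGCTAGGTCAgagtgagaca
Txnrd1, chr10:82859104-82859132, plus strand: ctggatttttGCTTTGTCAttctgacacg
Nfe2l2, chr2:75704885-75704913, minus strand: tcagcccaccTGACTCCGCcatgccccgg
Slc25a5, chrX:36795481-36795509, plus strand: caagcgaggcTGACAGGGCgacctcccag
Slc25a3, chr10:91123997-91124025, minus strand: tgcgtcacggTGACGCCGCgcgaagggca

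The 2 NRF2 targets with the largest differences, Gstm1 and Nqo1, held no match in their windows. Sequence beyond these short windows was not searched, so a match farther from the start sites is not excluded. The 250 bases before their start sites are given, for Gstm1 before the outer of the start sites in the table.
Gstm1, chr3:108017974-108018223, minus strand: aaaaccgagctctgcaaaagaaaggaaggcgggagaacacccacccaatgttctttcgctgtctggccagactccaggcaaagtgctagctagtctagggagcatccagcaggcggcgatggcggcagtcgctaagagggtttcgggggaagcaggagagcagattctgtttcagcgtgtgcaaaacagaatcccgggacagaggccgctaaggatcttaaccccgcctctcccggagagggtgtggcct
Nqo1, chr8:107403206-107403455, minus strand: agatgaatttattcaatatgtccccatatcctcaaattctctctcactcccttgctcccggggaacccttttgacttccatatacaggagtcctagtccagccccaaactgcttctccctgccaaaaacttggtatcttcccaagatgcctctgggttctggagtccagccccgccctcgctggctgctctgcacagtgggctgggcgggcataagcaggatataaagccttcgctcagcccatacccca

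No member passed the test over all genes (limma, Benjamini-Hochberg over 18193 genes, threshold 0.05, where 12 genes or 0.066% passed, 0.033% in each direction), and the lowest adjusted p was 0.0994, for Gstm1. At an unadjusted p under 0.05 the count was 7 higher and 1 lower of 33, beside 4.85% higher and 6.56% lower among all genes. The groups did not overlap in 12 members, 8 higher (24.2%, against 8.16% of all genes) and 4 lower (12.1%, against 10.8%). Among the 11961 genes at or above the median of all values, as these members are, the shares without overlap were 10.7% higher and 11% lower, and those at an unadjusted p under 0.05 were 6.3% higher and 6.11% lower. The median difference was 0.02 over the members and -0.02 over all genes. The plot of log2 differences gives every member.

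**Figure D1:**
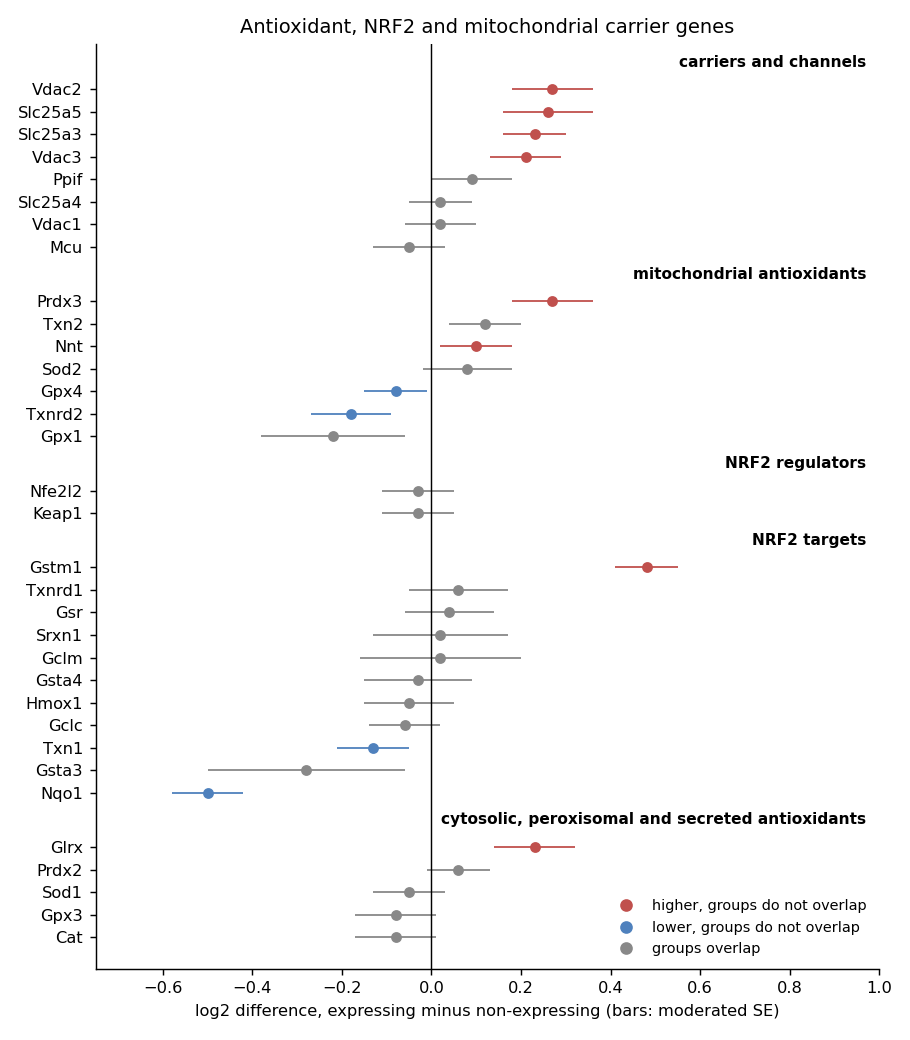
Log2 difference (expressing minus non-expressing, horizontal axis) of the 33 members, grouped by role, each point with its moderated SE. Red points are higher and blue points lower without overlap between the groups of 3 arrays, grey points overlap. Gstm1 at 0.48 and Nqo1 at -0.50 lie farthest from 0 and 4 of 8 carriers and channels are red, while none of the 33 passed the test over all genes.

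The carriers and channels lay mostly higher in the expressing hearts, by at most 1.21-fold. Of 8 genes, 7 had a positive difference against 44% of all genes. The groups did not overlap in 4 of 8, all higher (50%, against 8.16% of all genes). The same 4 were at an unadjusted p under 0.05 (50%, against 4.85% of all genes higher). The median was 0.15, and none passed over all genes (limma).

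Slc25a3 encodes the inner-membrane carrier that imports phosphate for ATP synthesis. It was at 13.76, 13.66 and 13.68 in the expressing arrays and at 13.49, 13.45 and 13.46 in the non-expressing arrays. The groups stood clear of each other with little spread, by 0.23 (SE 0.07, limma adjusted p 0.340). A second, dim probe set of the gene also lay higher without overlap, by 0.27.

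The adenine nucleotide translocases exchange ADP for ATP, and the heart's 2 forms differed from each other in pattern. Slc25a4, the form of heart and skeletal muscle, was at 14.51, 14.48 and 14.53 in the expressing arrays and at 14.48, 14.49 and 14.49 in the non-expressing ones. This is near the top of the scale of 2.09 to 14.8, and the difference was 0.02 (SE 0.07). A probe set of Slc25a4 far below that top also overlapped, with a difference of 0.08. Slc25a5, the form of many tissues, was at 12.84, 12.77 and 12.90 against 12.75, 12.54 and 12.45. Non-expressing replicate 1 lay just below the lowest expressing array and the other two farther down, which gave a difference of 0.26 (SE 0.10, limma adjusted p 0.382). All 8 Slc25a5 probe sets were higher, by 0.21 to 0.32, 6 of them at an unadjusted p under 0.05, and none passed over all probe sets (limma adjusted p 0.258 to 0.523). The difference between Slc25a4 and Slc25a5 was not itself tested.

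Among the outer-membrane channels, Vdac2 was at 12.90, 12.73 and 12.77 in the expressing arrays and at 12.62, 12.44 and 12.52 in the non-expressing ones. Vdac3 was at 12.59, 12.45 and 12.37 against 12.28, 12.22 and 12.28. Both were clear of overlap, Vdac2 by 0.27 (SE 0.09, limma adjusted p 0.340) and Vdac3 by 0.21 (SE 0.08, limma adjusted p 0.404), each read from a single probe set. Vdac1, at 13.03, 12.91 and 12.93 against 13.00, 12.86 and 12.94, overlapped in its brightest probe set. Its 5 probe sets ran from -0.12 to 0.18, and the one at 0.18 was higher without overlap.

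Genes of the permeability pore and of calcium entry overlapped. Ppif, which encodes cyclophilin D, the matrix regulator of the permeability transition, was at 11.13, 11.21 and 11.12 against 11.22, 10.95 and 11.03. Mcu, the pore of the calcium uniporter, was at 8.80, 8.90 and 8.82 against 8.96, 8.76 and 8.93. For both, non-expressing replicate 1 was the highest and replicate 2 the lowest of the 6 arrays, so the group's own spread covered the difference of 0.09 in Ppif and -0.05 in Mcu.

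**Figure D2:**
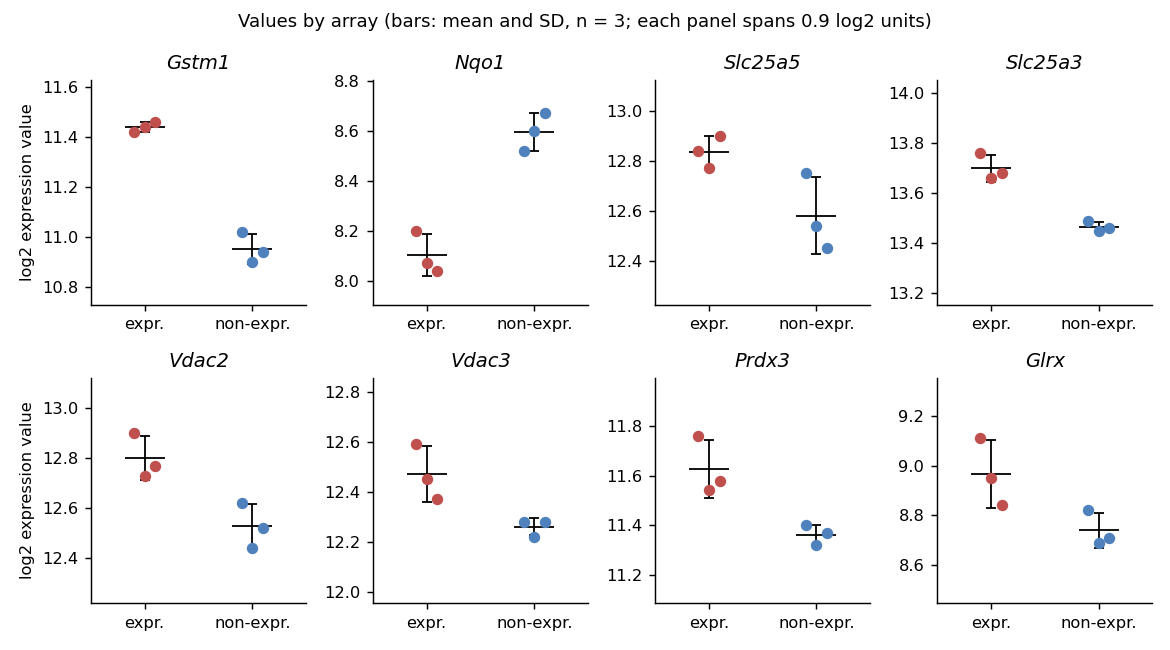
Log2 expression (vertical axis, 0.9 units in each panel) of 8 members by array, with expressing arrays in red and non-expressing arrays in blue, and bars for the mean and SD (n = 3). The groups of each of these 8 genes do not overlap, with Gstm1 at 11.42 to 11.46 against 10.90 to 11.02 and Nqo1 the only one that is lower in the expressing arrays.

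The 7 mitochondrial antioxidant enzymes did not share a direction: 4 differences were positive and 3 negative, with a median of 0.08. Groups without overlap were 2 higher and 2 lower (28.6% each, against 8.16% and 10.8% of all genes). At an unadjusted p under 0.05 was 1 gene, Prdx3, which was higher (14.3%, against 4.85% of all genes). None passed over all genes (limma, adjusted p 0.345 to 0.793).

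Prdx3 encodes the matrix peroxiredoxin, the main remover of hydrogen peroxide there. It was at 11.76, 11.54 and 11.58 in the expressing arrays and at 11.40, 11.32 and 11.37 in the non-expressing ones, 1.20-fold higher without overlap (difference 0.27, SE 0.09, limma adjusted p 0.345). Its electron donor Txn2, mitochondrial thioredoxin, was at 10.63 ± 0.07 and 10.51 ± 0.10 (SD) and overlapped in this probe set, while its 3 probe sets were all higher, by 0.12 to 0.16. The reductase that serves Txn2 lay the other way. Txnrd2 was at 8.88, 8.89 and 8.93 against 9.22, 8.98 and 9.04, lower without overlap (difference -0.18, SE 0.09, limma adjusted p 0.469). All 4 of its probe sets were lower, by -0.31 to -0.11, and 3 of the 4 had no overlap. Without non-expressing replicate 1 the Txnrd2 difference was -0.11.

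Sod2, the manganese superoxide dismutase of the matrix, was at 13.12, 13.05 and 13.06 against 13.20, 12.87 and 12.91. Non-expressing replicate 1 was the highest of all arrays and its partners the lowest, so the groups overlapped, with a difference of 0.08 (SE 0.10). Without that array the difference was 0.19 (limma adjusted p 0.325), and it was 0.02 without replicate 2 of that group and 0.04 without replicate 3. Nnt encodes the inner-membrane transhydrogenase that makes mitochondrial NADPH, and the C57BL/6J strain is known to carry a deletion within it. Where the Nnt probe sets lie relative to that deletion was not checked, so its values do not tell the strain. Nnt was at 12.99, 12.85 and 12.84 against 12.81, 12.75 and 12.83, far above the array medians of 5.77 to 5.78 in all 6 arrays. The groups were parted by the narrow gap between 12.83 and 12.84, and its 3 probe sets ran from -0.09 to 0.10, with a mean of 0.02.

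The 2 glutathione peroxidases of this group were lower. Gpx4, which reduces lipid peroxides, was at 13.09, 13.13 and 13.16 against 13.23, 13.19 and 13.20, a difference of only -0.08 (SE 0.07). Gpx1, which acts in cytosol and mitochondria, was at 11.22, 11.50 and 11.34 against 11.17, 11.74 and 11.80. Here non-expressing replicate 1 was the lowest of all arrays, 0.60 below the mean of its partners. The difference for Gpx1 was -0.22 (SE 0.16, limma adjusted p 0.639) with all arrays and -0.42 (limma adjusted p 0.164) without that array. It was -0.13 without replicate 2 of that group and -0.10 without replicate 3.

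The NRF2 regulators differed by little. Nfe2l2 was at 10.15, 10.17 and 10.34 in the expressing arrays and at 10.28, 10.26 and 10.22 in the non-expressing ones. Keap1 was at 8.47, 8.51 and 8.55 against 8.59, 8.45 and 8.59. Each difference was -0.03 (SE 0.08, limma adjusted p 0.923 and 0.898), and the arrays of the groups were interleaved. These are transcript levels, and NRF2 is governed largely through the stability of its protein, which arrays do not read.

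The 11 NRF2 targets held the largest differences of all members, and these ran in opposite directions. Of the 11, 5 were positive and 6 negative, with a median of -0.03. At an unadjusted p under 0.05 stood 1 higher gene, Gstm1, and 1 lower gene, Nqo1 (9.09% each, against 4.85% and 6.56% of all genes), and neither passed over all genes (limma).

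Gstm1 encodes a mu-class glutathione S-transferase, which joins glutathione to electrophiles. It was at 11.42, 11.44 and 11.46 in the expressing arrays and at 11.02, 10.90 and 10.94 in the non-expressing arrays. The groups were far apart, with very little spread among the expressing arrays. The difference of 0.48 (SE 0.07), 1.40-fold, did not pass (limma adjusted p 0.0994). It was the same in sign and size in all 4 probe sets of the gene, which lay 0.45 to 0.52 higher, each without overlap (limma adjusted p 0.109 to 0.157 over probe sets). Gstm1 passed when eBayes used a trend over intensity and a robust prior (adjusted p 0.0196) and when arrays were weighted (0.0443), and its adjusted p was 0.213 with title prefix as a random block, within a range of 0.0196 to 0.409 over 15 alternatives (limma).

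Nqo1 encodes the quinone reductase used widely as a readout of NRF2. It was at 8.20, 8.07 and 8.04 in the expressing arrays and at 8.52, 8.60 and 8.67 in the non-expressing arrays. All 3 expressing arrays were thus below all others, by 1.41-fold in the mean (difference -0.50, SE 0.08), and this did not pass either (limma adjusted p 0.132). The gene has a single named probe set, so no second reading was at hand.

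Of the other 9 targets, Txn1 was lower without overlap and 8 overlapped. The enzymes of glutathione synthesis, Gclc and Gclm, are the catalytic and modifier subunits of glutamate-cysteine ligase. Gclc was at 7.79, 7.67 and 7.65 against 7.71, 7.80 and 7.76. Gclm was at 8.29, 8.43 and 8.64 against 8.86, 8.21 and 8.25. The difference was -0.06 for Gclc and 0.02 for Gclm, and the Gclm value of non-expressing replicate 1 was the highest of the 6 arrays.

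Srxn1, sulfiredoxin, which repairs over-oxidised peroxiredoxins, was at 7.02, 7.10 and 7.18 against 7.46, 6.92 and 6.85. Txnrd1, cytosolic thioredoxin reductase, was at 9.02, 8.93 and 8.98 against 9.16, 8.82 and 8.78. Both show the same layout, with the expressing arrays close together, non-expressing replicate 1 above them and replicates 2 and 3 below them. Hmox1, haem oxygenase 1, was at 6.74, 6.81 and 6.73 against 6.99, 6.62 and 6.82, again highest in that replicate. The differences of these 3 genes lay between -0.05 and 0.06.

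Txn1, cytosolic thioredoxin, was at 11.50, 11.51 and 11.61 against 11.64, 11.62 and 11.76, lower without overlap by a narrow margin (difference -0.13, SE 0.08, limma adjusted p 0.557). Its second, dim probe set gave -0.13 too. Gsr, glutathione reductase, differed by 0.04 and Gsta4, an alpha-class transferase that handles lipid aldehydes, by -0.03. Gsta3, another alpha-class transferase, was at 6.59 in expressing replicate 1 and between 7.33 and 7.63 in the other arrays, so that its difference of -0.28 (SE 0.22) rested on 1 array and was 0.01 without it.

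**Figure D3:**
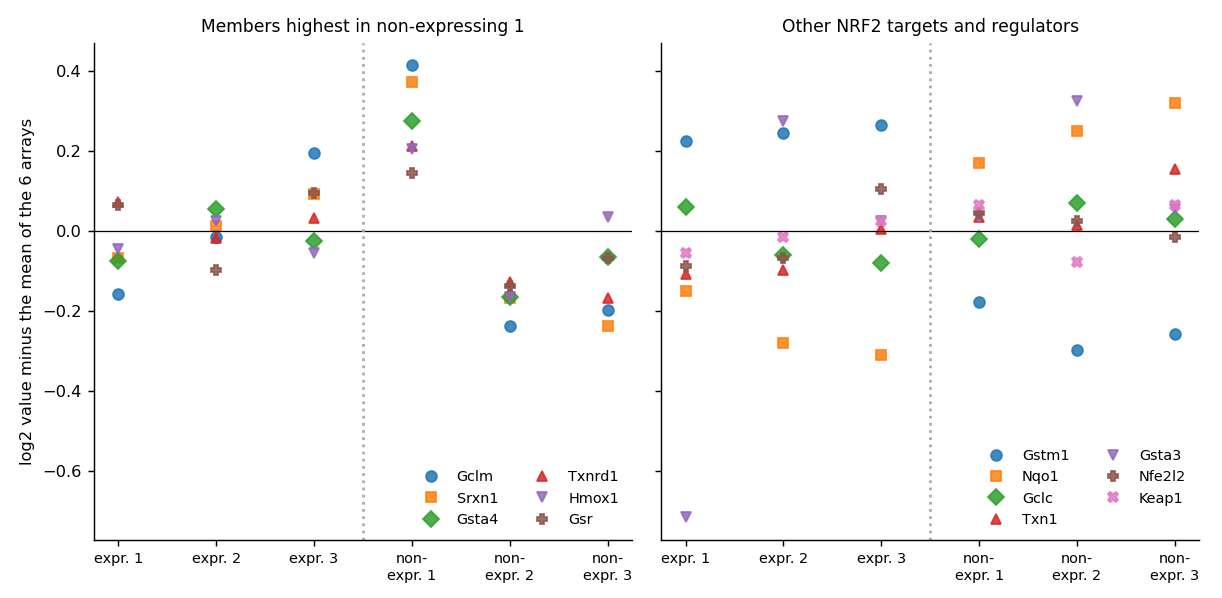
Log2 value minus the gene's mean over the 6 arrays (vertical axis) for each array (horizontal axis), with a dotted line between the groups. The left panel holds the 6 NRF2 targets that were highest in non-expressing replicate 1, and the right panel the other 5 with the regulators Nfe2l2 and Keap1, where Gstm1 and Nqo1 part the groups in opposite directions.

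Non-expressing replicate 1 was the highest of the 6 arrays for 6 of the 11 NRF2 targets (Gclm, Srxn1, Gsta4, Txnrd1, Hmox1 and Gsr), against 23.7% of all genes. Above both other non-expressing arrays it lay for 7 of the 11 and below both for 3, against 37.7% and 40.1% of all genes, with a median gap of 0.25 to their mean against -0.01 over all genes. The gap was 0.63 in Gclm, 0.58 in Srxn1, 0.39 in Gsta4, 0.36 in Txnrd1, 0.27 in Hmox1 and 0.25 in Gsr. Nfe2l2 and Keap1 had gaps of 0.04 and 0.07. The 22 further NRF2 targets read below did not share this layout: the array was above both partners for 8 and below both for 10, with a median gap of -0.05, and the highest of the 6 arrays for 3 (13.6%). This array has a sample title prefix of its own, and it was one array, so no test was made. In it, 8 of the 9 macrophage markers were above both other non-expressing arrays. Among the 8 were Cd68 at 8.82 against 7.13 and 6.86 and Lyz2 at 11.47 against 10.79 and 10.57. Cd163 went the other way, at 5.72 against 7.23 and 6.97. Expressing replicate 1 was also the highest of its group in Cd68, at 8.53, and Lyz2, at 11.50. The median deviation of the 11 NRF2 targets from the gene's mean was -0.07 in expressing replicate 1 and 0.17 in non-expressing replicate 1. The part of macrophages in the NRF2 target values was not tested. With non-expressing replicate 1 left out, the median of the 11 targets changed from -0.03 to 0.10. The members at an unadjusted p under 0.05 became 9 higher and 2 lower (limma, none passed over all genes). Sod2 and Srxn1 joined the higher and Gpx1 the lower genes. Among all genes the shares were then 6.35% higher and 8.05% lower.

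The 5 cytosolic, peroxisomal and secreted antioxidants differed by little, apart from Glrx. Glrx, glutaredoxin 1, which takes glutathione off protein thiols, was at 9.11, 8.95 and 8.84 in the expressing arrays and at 8.82, 8.69 and 8.71 in the non-expressing ones. The groups only just cleared each other, with a difference of 0.23 (SE 0.09, limma adjusted p 0.408). A second probe set of Glrx lay 0.45 higher, also without overlap (limma adjusted p 0.361 over probe sets). Much of that came from expressing replicate 1, at 8.64 beside 8.00 and 7.90 in the other expressing arrays. Without that array the first probe set was 0.16 higher.

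Cat, peroxisomal catalase, was at 11.29, 11.19 and 11.07 against 11.23, 11.37 and 11.19, with overlap and a difference of -0.08 (SE 0.09). Sod1, the copper-zinc superoxide dismutase of the cytosol, was at 12.13 ± 0.06 and 12.18 ± 0.04 (SD). Gpx3, the secreted glutathione peroxidase, was at 11.16 ± 0.09 and 11.25 ± 0.08 (SD). Prdx2, an abundant cytosolic peroxiredoxin, was at 12.54 ± 0.04 and 12.48 ± 0.04 (SD). The groups of Sod1, Gpx3 and Prdx2 overlapped, and none of these differences was over 0.08 in size.

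The 33 genes have 83 named probe sets, of which 0 passed over 45037 probe sets (limma, where 0.0133% passed, 0.00222% higher and 0.0111% lower, with a lowest adjusted p of 0.109) and 16 were higher and 2 lower at an unadjusted p under 0.05, beside 5.86% higher and 6.37% lower of all probe sets. Groups without overlap made up 8.27% higher and 10.3% lower of all probe sets. Of the 16, 6 were from Slc25a5 and 4 from Gstm1, and probe sets of 1 gene share its RNA and are no replicates. In 14 of the 25 genes with more than 1 probe set all differences had the same sign. In no gene did probe sets reach an unadjusted p under 0.05 in opposite directions.

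**Figure D4:**
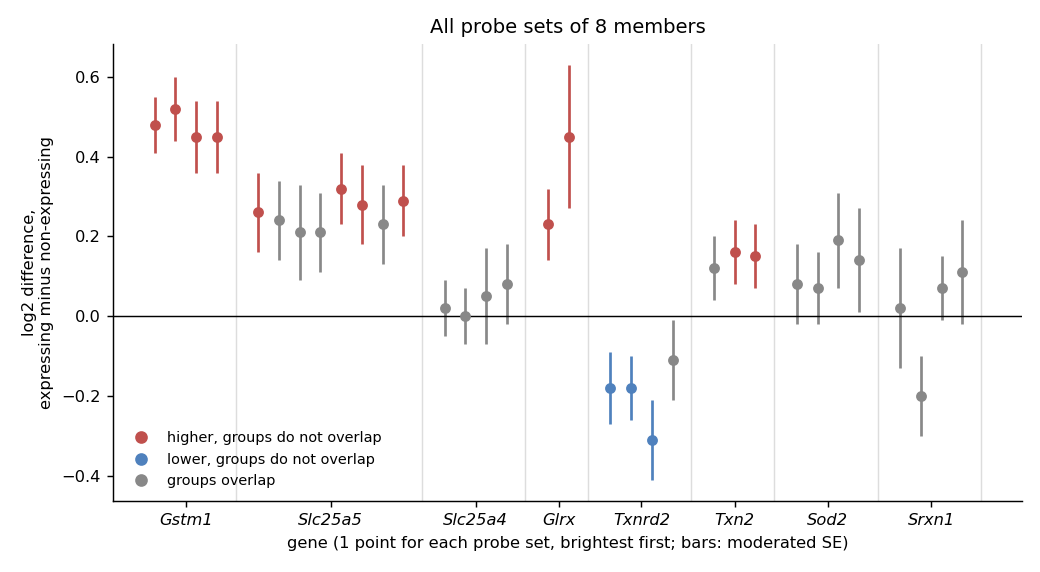
Log2 difference (expressing minus non-expressing, vertical axis) of every probe set of 8 members, brightest first within a gene, with the moderated SE. All 4 Gstm1 and all 8 Slc25a5 probe sets lie above 0 and all 4 Txnrd2 probe sets below it, whereas those of Slc25a4 lie near 0 and those of Srxn1 on both sides.

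Further genes of these pathways were read from lists of 106 genes, of which 98 were measured. None passed over all genes (limma), and 10 were higher and 4 lower at an unadjusted p under 0.05 (10.2% and 4.08%, against 4.85% and 6.56% of all genes, which serve as background for each list below). Of 22 other NRF2 targets, 2 were higher and 1 lower at that level, with a median of 0.00. Gstm2, a second mu-class transferase, was at 10.66, 10.72 and 10.63 against 10.29, 10.37 and 10.29, higher without overlap by 0.35 (SE 0.07, limma adjusted p 0.188). Me1, cytosolic malic enzyme and a source of NADPH, lay 0.19 higher and Gss, glutathione synthetase, differed by -0.18 (limma adjusted p 0.405 each). The mean of the Me1 probe sets was 0.11 higher. Ugdh, which makes UDP-glucuronate, differed by 0.19 and overlapped.

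The mu-class genes lie together on chromosome 3 and are alike in sequence, so their probe sets may share signal. Set out after their values were seen, the 7 measured genes differed in direction. Beside Gstm1 and Gstm2, Gstm3, Gstm4, Gstm6 and Gstm7 overlapped between the groups. Gstm5 was at 10.66, 10.91 and 10.75 in the expressing arrays and at 10.82, 11.69 and 11.58 in the non-expressing ones. Non-expressing replicate 1 fell among the expressing arrays and its partners far above them. The Gstm5 difference was -0.59 (SE 0.21, limma adjusted p 0.362) with all arrays and -0.86 without that one (limma adjusted p 0.0459, within 0.0459 to 0.623 over the alternatives).

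Of 20 other peroxide and thiol enzymes, 4 were higher and 2 lower at an unadjusted p under 0.05, with a median of 0.05. The largest difference of the 98 was in Txnip, the protein that binds and inhibits thioredoxin. Txnip was at 10.52, 10.41 and 10.82 in the expressing arrays and at 10.99, 11.81 and 11.75 in the non-expressing arrays. All expressing arrays were below all non-expressing arrays, with replicate 1 of the latter nearest to them. The difference was -0.94 (SE 0.21, limma adjusted p 0.208), and without that array it was -1.20 and passed (limma adjusted p 0.0414, within 0.0414 to 0.508 over the alternatives). Mgst1, a membrane-bound transferase, lay 0.43 higher (SE 0.12, limma adjusted p 0.297), Prdx4, the peroxiredoxin of the endoplasmic reticulum, 0.29 higher (SE 0.08, limma adjusted p 0.268) and Gpx8, of the same compartment, 0.28 higher (SE 0.09, limma adjusted p 0.346), each without overlap. In the mean of a gene's probe sets Mgst1 was only 0.13 higher (limma adjusted p 0.569) and Prdx4 0.17 higher.

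Of 31 further genes, most of them mitochondrial carriers, 20 were positive (64.5%, against 44% of all genes), with a median of 0.06. At an unadjusted p under 0.05, 2 were higher and 1 lower. Slc25a1, the citrate carrier, lay 0.29 higher without overlap (limma adjusted p 0.352) and Slc25a11, the oxoglutarate carrier, 0.27 higher with overlap (limma adjusted p 0.424). Slc25a12, an aspartate-glutamate carrier, differed by 0.20 (limma adjusted p 0.445) and Slc25a30 by -0.23 (limma adjusted p 0.409). No difference between these carriers and the listed members was tested. The 7 further genes of the calcium uniporter and outer membrane had a median of 0.00 and none was at an unadjusted p under 0.05, with values of 0.17 for Tspo, -0.05 for Smdt1, 0.05 for Slc8b1 and 0.05 for Micu3.

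Among 9 NRF2 partners and degradation genes, Gsk3b, a kinase that marks NRF2 for degradation, lay 0.26 higher without overlap (limma adjusted p 0.362), and 0.07 higher in the mean of its probe sets (0.689). It was the only one at an unadjusted p under 0.05. Of the small MAF genes, Mafk and Maff differed by -0.13 and -0.20 and Mafg by 0.08. Rbx1, of the ubiquitin ligase complex, differed by 0.12, and all of these overlapped. The Maff difference ran from -0.35 to -0.06 with 1 array left out. Among 9 sources of reactive oxygen species, Maob, the monoamine oxidase of the outer mitochondrial membrane that releases hydrogen peroxide, was at 10.38, 10.34 and 10.36 against 9.99, 9.92 and 10.11. The expressing arrays were nearly equal and above all others, by 0.35 (SE 0.08, limma adjusted p 0.208). Nox4, a hydrogen peroxide-producing oxidase, was dim at 3.81 to 4.75 and overlapped. Xdh and Cyba differed by -0.18 and -0.08, both without overlap.

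Values of the whole series that run beside these results are few. Arrays correlated at 0.992 to 0.997, and no 2 arrays held identical values. The 3 probe sets of mouse Pgr, which does not read the human transgene unless alike in sequence, lay at 3.14 to 4.70 with differences of -0.14 to -0.01, so the group labels could not be checked. All 8 cardiomyocyte markers were measured, with a summed level (log2 of the summed signal) of 17.24 to 17.29 in expressing hearts and 17.23 to 17.27 otherwise. Most of them lay near the top of the scale of 2.09 to 14.8, such as Myh6 at a mean of 14.58 in both groups. Ryr2, the dimmest of them, was 0.35 higher with overlap (limma adjusted p 0.569). Of 8 atrial muscle markers 4 were higher without overlap, 3 of them passing (Sln, Myl7 and Myl4, by 3.89, 3.45 and 3.60), and the summed level was 11.81 to 13.35 against 10.90 to 11.48. These 3 calls were lost with title prefix as a random block (limma adjusted p 0.0882 to 0.0987). They also depended on single arrays. With 1 array left out the adjusted p was 0.000199 to 0.191 in Sln and 0.00466 to 0.177 in Myl7 and Myl4 (limma). None of the 18193 genes passed without non-expressing replicate 2, and only 1 with the mean of a gene's probe sets. Of 7 fibroblast markers 4 were higher without overlap (summed level 14.53 to 14.67 against 14.30 to 14.44), and of 7 endothelial markers 2 were (12.00 to 12.04 against 11.84 to 11.96). Beside all these marker counts, 8.16% of all genes were higher without overlap, and 10.7% of genes at or above the median of all values. The other endothelial markers overlapped: Vwf differed by 0.73, Cdh5 by 0.05, Tek by 0.01, Kdr by -0.11 and Tie1 by -0.07. The summed levels of 9 of 9 macrophage, 5 of 7 adipocyte, 3 of 5 erythroid and 3 of 6 Schwann markers overlapped, although 2 of the 3 Schwann markers and 1 macrophage marker were higher without overlap (Mbp by 0.88, limma adjusted p 0.117, Sox10 by 0.05 and Mrc1 by 0.36). A summed level follows its brightest markers, for adipocytes Fabp4 at 13.44 to 13.73. Overlap of the sums thus does not show equal cell content. Adipoq was 0.80 higher (limma adjusted p 0.459) and Alas2, the brightest erythroid marker, differed by -0.48 (limma adjusted p 0.561), both with overlap. Control probe sets of 18S ribosomal RNA averaged 8.31 ± 0.22 in expressing hearts and 9.88 ± 0.38 in the others (SD), and the excess of the 3′ over the 5′ probe set of beta-actin, which grows as RNA degrades, was 1.23 ± 0.05 and 1.38 ± 0.07 (exact permutation p = 0.1 each, two-sided, the smallest that 3 against 3 allows). The same measure of Gapdh overlapped, at 0.17 ± 0.06 and 0.25 ± 0.07 (exact permutation p = 0.3). The part of atrial, fibroblast, endothelial, Schwann or macrophage cells and of RNA quality in the differences of the members was not tested. Each group lies in title prefixes of its own, so prefix and group cannot be told apart, and in such bulk tissue fewer cells of a type and less RNA per cell cannot be told apart.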

How the data were processed

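Total RNA of the ventricular apex was amplified from 500 ng before array analysis, per the labels. The authors deposited 1 value per array for each probe set, taken as log2 from its range. RMA and Partek 6.6 appear in the submitters' processing notes without role or order, and further settings were not given in the sources used here. Array medians were 5.77 to 5.78, so a difference is relative to the other genes of an array.

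Of 45101 probe sets 64 controls were left out, and 45037 were fitted with limma 3.58.1 in R 4.3.3 (lmFit, eBayes with the default prior of 4.48 degrees of freedom beside 4 residual ones, two-sided). P-values were adjusted by Benjamini-Hochberg over all probe sets and over 18193 genes, each taken from its brightest probe set with 1 gene symbol. Symbols came from the platform annotation, and 0 changed against the RefSeq gene table. The number of arrays, 3 in each group, limits the precision. The fit was tested on simulated data.

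Members and lists were chosen with earlier results of these data known. Named with the value of each array were members without overlap between groups, the NRF2 regulators, 6 NRF2 targets and a few carriers and enzymes, and from each further list up to 4 genes of lowest p. The array values of Vdac1 and Gpx1, the difference of Mafg, the mu-class transferases beyond Gstm1 and Gstm2, and the macrophage markers of single arrays were given after their values were seen. Replicate numbers follow accession order and pair nothing. Alternatives were a filter on dim probe sets, the mean of a gene's probe sets, leaving out _x_at and _s_at probe sets, cyclic loess, centring of array medians, a robust eBayes prior with a trend over intensity, the title prefix as a random block (consensus correlation 0.117), array weights, and leaving out each array. A prior estimated over genes only was added after seeing the data.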

Additional observations from a re-analysis of the deposited data

How the results depend on the processing

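No paired analysis was possible because the labels give no replicate numbers that pair arrays across the groups, and the numbers used here follow accession order. Of the 33 members, 22 kept the sign of their difference under all 15 alternatives and 11 did not. The count of members passing over genes, 0 as reported, was 1 (Gstm1) with a trend over intensity and robust prior and 1 (Gstm1) with array weights, where non-expressing replicate 1 had the lowest weight, 0.431. Over probe sets these settings passed 2 and 1 of Gstm1. With 1 array left out 0 passed in both. The members at an unadjusted p under 0.05, 7 higher and 1 lower, were 3 to 9 higher and 1 to 2 lower with 1 array left out: leaving out replicate 1 of the expressing group gave 3 higher, and replicate 2 or 3 of the other group 4. The lower count was 2 with the mean of all probe sets, the trend or the weights. Of other pathway genes 0 to 1 passed with 1 array left out. Medians with 1 array left out were 0.02 to 0.11 for mitochondrial antioxidants, -0.10 to 0.10 for NRF2 targets and -0.05 to -0.01 for the cytosolic, peroxisomal and secreted antioxidants, and averaging a gene's probe sets gave 0.02 for the first and -0.02 for the last. That of the carriers and channels was 0.11 to 0.19.

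The differences of 11 members and of Micu3 and Cd68 changed sign. With 1 array left out they ran from -0.01 to 0.06 in Vdac1, -0.09 to 0.01 in Nfe2l2, -0.14 to 0.04 in Hmox1, -0.10 to 0.23 in Gclm, -0.02 to 0.12 in Gsr, -0.49 to 0.01 in Gsta3, -0.12 to 0.10 in Gsta4, -0.09 to 0.21 in Srxn1, -0.01 to 0.18 in Txnrd1, -0.07 to 0.17 in Micu3 and -0.16 to 0.82 in Cd68. With the mean of all probe sets Keap1 was at 0.01, Gclc at 0.02 and Gclm at -0.01. Without _x_at and _s_at probe sets Gclc was at 0.09 and Srxn1 at -0.20, from other probe sets. With array weights Hmox1 was at 0.00 and Gsta4 at 0.05. The cause of the other changes was not tested. The difference stayed between 0.46 and 0.52 for Gstm1 and between -0.54 and -0.46 for Nqo1 with 1 array left out, with an adjusted p over all alternatives of 0.0196 to 0.409 and 0.0538 to 0.409 (limma).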
